A study of Homo sapiens with 8 samples.

Results

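The heat shock chaperones of the cytosol, nucleus and mitochondria were examined in MOLM-13 cells treated with the immunoproteasome inhibitor PR-957. The genes were chosen by symbol and comprised the HSP70 and HSP110 genes, the HSP40 genes (DNAJA, DNAJB and DNAJC), the small heat shock proteins (HSPB), the 2 cytosolic HSP90 genes, TRAP1, 3 HSP90 cochaperones, both mitochondrial chaperonin genes, the 8 TRiC genes, BAG1 to BAG6, HSF1, HSF2 and SERPINH1. HSPA5, DNAJB9, DNAJB11 and DNAJC3 were excluded as endoplasmic reticulum (ER) chaperones. These rules gave 90 of 38551 genes with values. MOLM-13 is a human acute myeloid leukemia line with a KMT2A rearrangement. Cells of 4 libraries received 100 nM PR-957 (ONX-0914) and cells of 4 libraries received the vehicle DMSO, both for 72 h. The contrast thus covered 1 cell line, 1 dose and 1 time. The sources used here do not say whether libraries of a group came from separate cultures, so p-values measure the spread between these libraries.

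Heat shock chaperones bind unfolded or newly made proteins and keep them from aggregating. HSP70 works in a cycle in which a J-domain protein (HSP40) delivers a client and stimulates ATP hydrolysis, and an HSP110 or BAG protein then releases the nucleotide. Clients pass from HSP70 to HSP90 through the adaptor STIP1, while actin, tubulin and other proteins fold inside the ring of TRiC, and proteins imported into mitochondria meet HSPA9 and then the chamber of HSPD1 and its lid HSPE1. The inducible members are classical targets of the transcription factor HSF1, which binds inverted repeats called heat shock elements, and inhibition of the proteasome is a known trigger of this response.

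Total counts per library ran from 16675036 to 23111223, with DMSO replicate 4 the deepest. A count of 3 in a library, used as the detection floor, corresponded to 0.130 to 0.180 counts scaled to a common library size (CPM). All 6 myeloid markers that were checked were detected, with summed levels of 603 to 678 CPM under DMSO and 500.1 to 533 CPM in PR-957. FLT3 alone fell, from 340.4 ± 7.24 to 173 ± 19.7 CPM, SPI1 was higher, at 158 ± 8.24 against 181 ± 8.04 CPM, and the remaining 4 were not called (edgeR). Of 8 markers of other cells, CD3E was at 0 in all 8 libraries, and the summed level was 31.8 to 38.5 CPM under DMSO and 24.4 to 34.0 CPM in PR-957, nearly all of it KRT18. Mitochondrially encoded transcripts took 1.94% to 2.75% of the counts in DMSO and 4.15% to 5.24% in PR-957, and the part of this shift in the results given here was not tested. DMSO replicate 4 had the lowest level of the 4 DMSO libraries for 46 of 72 tested chaperone genes (63.9%), against 34.7% of all genes tested, and values without this library are given where a call was lost or a fold moved by over 1.5 times.

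Levels varied widely among the members. On a scale corrected for gene length (TPM, counts per base of gene scaled to a fixed sum), HSP90AB1 was the most abundant in DMSO at 1963 ± 107 TPM (SD, n = 4). It was followed by HSPA8 at 924 ± 158, HSPD1 at 851 ± 47.3 and CCT8 at 785 ± 17.5 TPM, and the means of HSPA8 and HSPD1 were closer than the spread of HSPA8. At the other end, 18 members were too low to be tested and 5 of these were at 0 counts in all 8 libraries. A total of 9 members also lie on alternate or fix contigs of the genome, so that their fragments can map to more than 1 place and may not have been counted. For these, DNAJA3, DNAJC28, HSPA1A, HSPA1B, HSPA1L, BAG6, DNAJC8, CHORDC1 and HSF1, the counts may understate the level by an unknown amount, although DNAJC8 was still well counted. DNAJA3, a mitochondrial J-domain protein, for example held 1 count over the 8 libraries, which says nothing about its expression.

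In cells treated with PR-957, the chaperones as a set took a larger share of the transcriptome. Members held 1.502%, 1.51%, 1.45% and 1.32% of the counts in DMSO replicates 1 to 4, and 1.89%, 1.94%, 1.89% and 1.86% in PR-957 replicates 1 to 4. The groups did not overlap, and their means were 1.45% ± 0.0862 and 1.90% ± 0.0353 (SD, n = 4). In bulk RNA, a change in the cells present and a change in RNA per cell cannot be told apart. A few abundant genes carried most of this difference of 0.450 percentage points. HSP90AA1 accounted for 30.6% of it, HSPA8 for 21.4%, HSP90AB1 for 16.0% and HSPD1 for 5.17%. The shares are of raw counts, before the scaling between libraries used in the tests below. The difference is also net of members that fell, such as HSPA9 and CCT8.

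**Figure D1:**
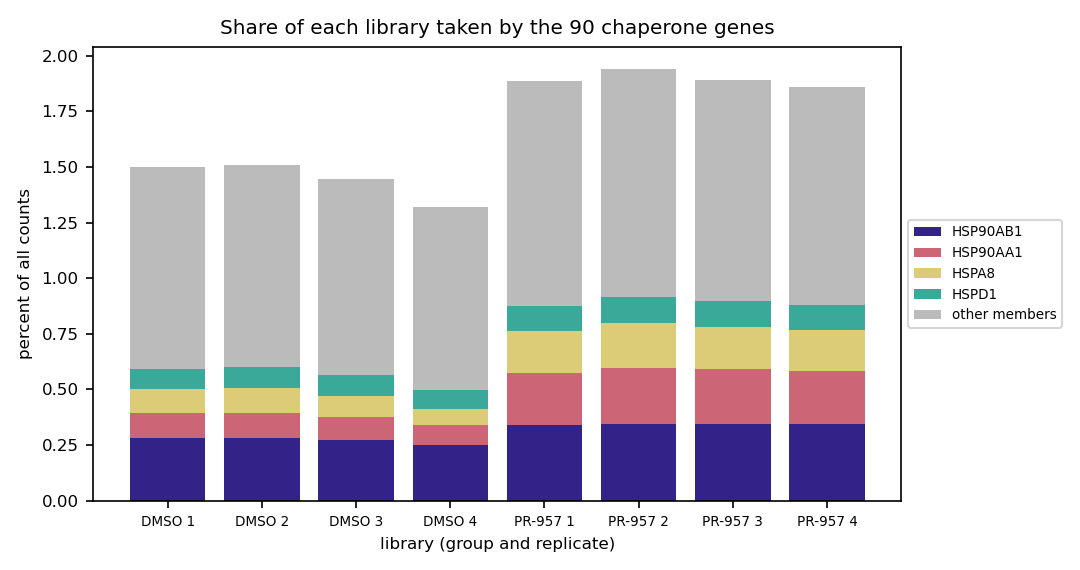
Share of all counts held by the 90 chaperone genes in each library (y axis, percent of total counts), for DMSO and PR-957 replicates 1 to 4, with each bar divided into HSP90AA1, HSP90AB1, HSPA8, HSPD1 and the remaining members. The DMSO bars reach 1.32% to 1.51% and the PR-957 bars 1.86% to 1.94%, and the segments of HSP90AA1 and HSPA8 widen the most.

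Tested gene by gene, 72 members passed the filter on low counts. Of these, 32 were higher in PR-957 (44.4%), 13 were lower (18.1%) and 27 did not pass the threshold (edgeR quasi-likelihood test, adjusted p under 0.05 over all 13179 genes tested). Over all genes tested, 23.1% were higher and 23.5% lower, or 46.6% in either direction. Increases of at least 1.5-fold were called for 15 members and for 6.80% of all genes, and decreases of this size for 3 members and 7.00% of all genes. Groups did not overlap for 41 members (56.9%) against 42.5% of all genes. The median log2 fold change of the tested members was 0.15, beside 0.00300 over all genes. A total of 5 members, HSPA6, HSPA1A, DNAJB5, DNAJC6 and CHORDC1, passed the filter through the libraries of 1 group alone, and these counts are a description of the members. Without DMSO replicate 4 the calls were 31 higher and 15 lower, with a median of 0.11. Scaled by library totals alone, which moved the median of all genes to 0.0807, 36 members were higher and 9 lower. The same scaling called 4066 of all 13179 genes higher and 2353 lower, against 3045 and 3098 in the main fit. Fits of replicates 1 and 2 alone called 30 higher and 11 lower, and fits of replicates 3 and 4 alone called 30 higher and 9 lower.

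**Figure D2:**
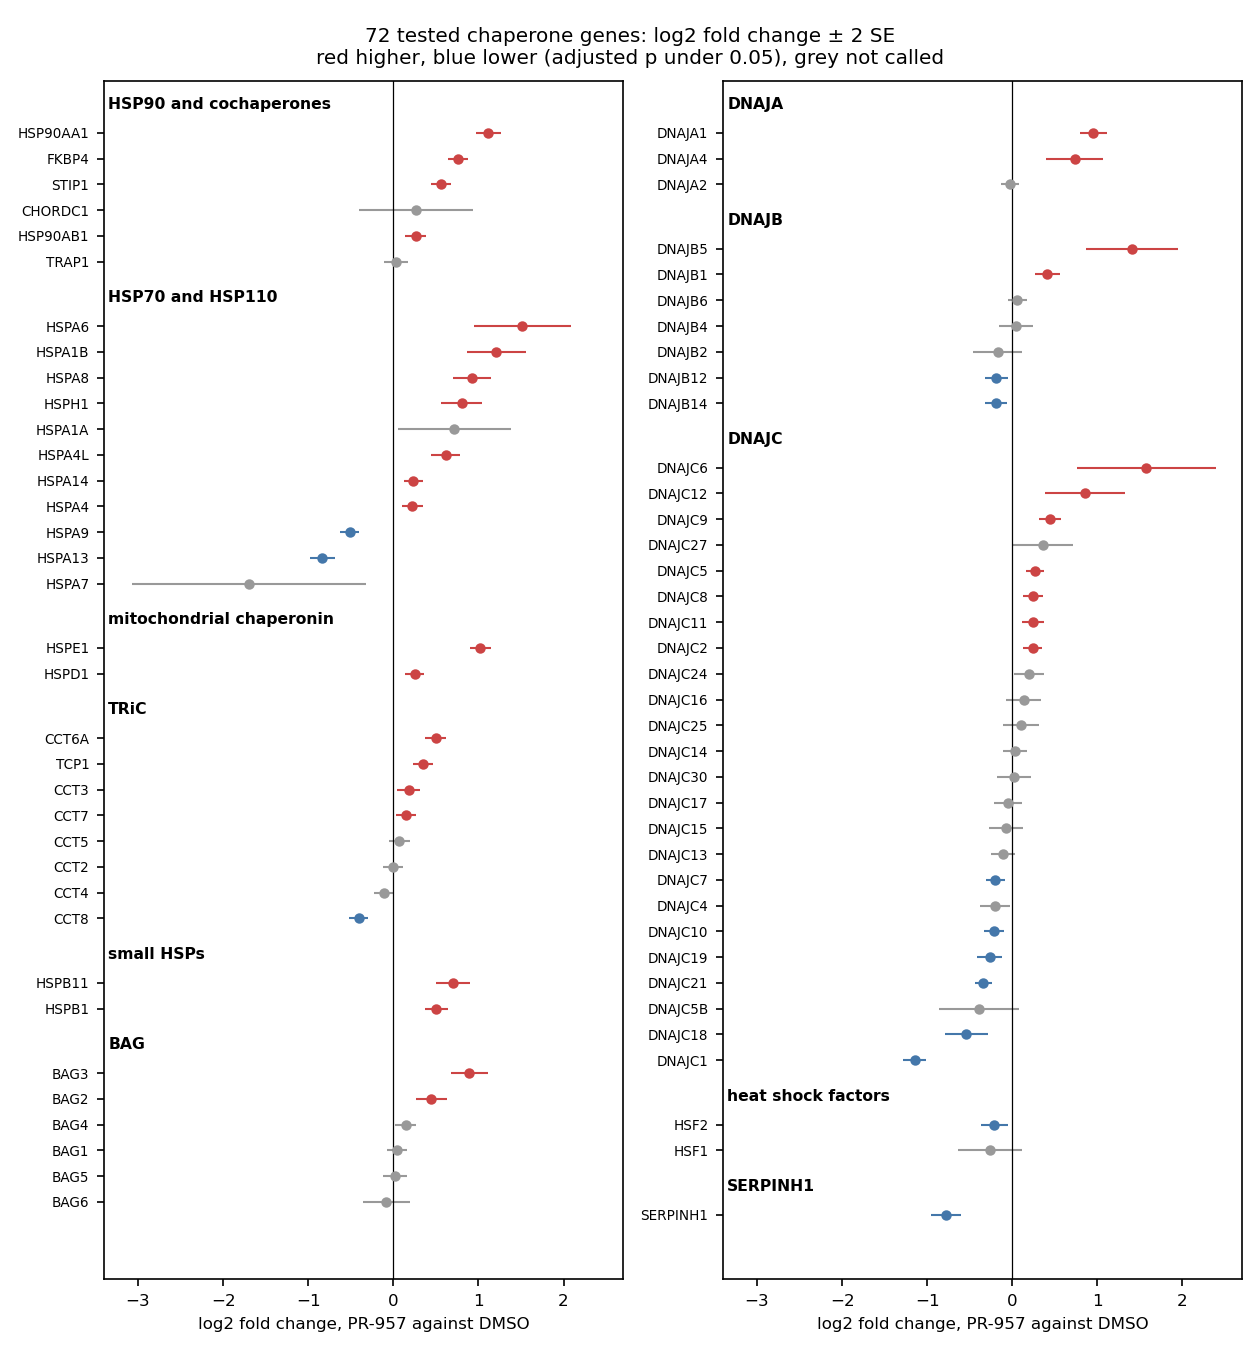
Log2 fold change of PR-957 against DMSO (x axis) for the 72 tested members, grouped by family on the y axis. Points are edgeR estimates and bars span 2 SE on each side, with red for the 32 members called higher, blue for the 13 called lower and grey for the 27 not called. The HSP90, HSP70 and DNAJA families lie mostly to the right of 0, whereas DNAJC genes spread from -1.15 to 1.57.

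To see which members carry the binding motif of heat shock factors, the 300 bases around the RefSeq gene start (250 before and 50 after) were searched for a heat shock element. The element was written as 3 alternating units, GAANNTTCNNGAA or TTCNNGAANNTTC, on either strand. It was present in 172 of 35116 promoter windows in the reference table (0.490%). Counted per gene, with a match in any window, this was 166 of 27305 genes (0.608%). Of 76 members with a window, also counted per gene, 9 held it (11.8%). These were 6 of the 28 members called higher (HSP90AA1, HSP90AB1, HSPA6, HSPA8, HSPD1 and DNAJA1), 1 of the 12 called lower (SERPINH1), 2 of the 22 tested without a call (CHORDC1 and DNAJB6) and 0 of the 14 not tested. Of the 9, HSPA6 and CHORDC1 passed the filter on low counts through the libraries of 1 group alone, for HSPA6 the PR-957 libraries. The tally by call is therefore only a description of the members. Among all tested genes, 19 of 2403 called higher, 6 of 2343 called lower and 22 of 5166 not called had an element. A match describes the letters in the window and does not show binding. The search allowed no mismatch and covered these 300 bases only, so a missing match does not show that a gene lacks an element. Of the 32 members called higher, 28 had a window. The windows of HSP90AB1 and HSPA8 each held 2 separate elements. The stretches below are those of the called members, shown because they set the elements of strongly and weakly changed genes side by side. They run 5′ to 3′ on the strand of the gene (RefSeq, GRCh38.p14), with the element in capitals.
HSP90AA1, chr14:102087115-102087137, minus strand: ggttcTTCCGGAAGGTTCgggag
HSP90AB1, chr6:44247826-44247848, plus strand: gattgTTCTGGAAGCTTCtggat
HSP90AB1, chr6:44247773-44247795, plus strand: gcaggTTCTGGAAGATTCatggg
HSPA6, chr1:161524461-161524483, plus strand: aaaggTTCGCGAAAGTTCgcggc
HSPA8, chr11:123062174-123062196, minus strand: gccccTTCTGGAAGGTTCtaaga
HSPA8, chr11:123062349-123062371, minus strand: agcttGAAAGTTCCAGAAcgctg
HSPD1, chr2:197500063-197500090, minus strand: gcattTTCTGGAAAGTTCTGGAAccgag
DNAJA1, chr9:33025271-33025293, plus strand: gggcgGAACTTTCCAGAAcgctc
SERPINH1, chr11:75562172-75562194, plus strand: caactTTCCAGAAGTTTCtcggg
The HSPD1 element has 4 units in a row, matched by the same pattern and its inverse in overlap, and lies on the side of its neighbour HSPE1. The DNAJA1 element lies within the first bases after the RefSeq start, and the others lie before it. In the GENCODE annotation of GRCh38, the stretches of HSPA8, HSPD1 and SERPINH1 fall in exons of further transcripts of the same gene. Those of HSP90AA1 and HSP90AB1 fall in introns of longer transcripts, and that of HSPA6 lies before the gene. In the stretch of DNAJA1, the bases from the RefSeq start onward are exonic.

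In the HSP90 family the stress-inducible HSP90AA1 and the cochaperones FKBP4 and STIP1 had the largest increases. Of 6 tested genes, 4 were higher (66.7%), none lower and 2 not called, with a median log2 fold change of 0.41. Over all genes tested, 23.1% were higher and 23.5% lower. HSP90AA1 (chr14:102080742-102139749, minus strand) encodes the inducible cytosolic HSP90. Its level was 1197, 1149, 1119.6 and 916 CPM in DMSO replicates 1 to 4 and 2337, 2462, 2418 and 2293 CPM in PR-957 replicates 1 to 4. Every PR-957 library lay above every DMSO library, and DMSO replicate 4 was the lowest. The change was 2.17-fold, a log2 fold change of 1.12 ± 0.0717 (SE, edgeR adjusted p = 4.17e-10). HSP90AB1 (chr6:44246166-44253888, plus strand), the constitutive form, ran from 2513 to 2938 CPM with DMSO and 3279 to 3386 CPM with PR-957. It rose by a log2 fold change of 0.26 ± 0.0596 (SE, edgeR adjusted p = 0.00133). The windows of both genes held an element, as printed above. The ratio of HSP90AA1 to HSP90AB1 counts within a library was 0.365 to 0.408 in DMSO and 0.690 to 0.734 in PR-957, without overlap.

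Both further genes called higher encode cochaperones of HSP90. FKBP4, an immunophilin that joins HSP90 on steroid receptors, was 127, 126, 115 and 107 CPM in DMSO, against 204, 192, 205 and 204 CPM in PR-957. The groups did not overlap, and the log2 fold change was 0.76 ± 0.0593 (SE, edgeR adjusted p = 4.98e-09). STIP1, which links HSP70 to HSP90, ran from 188 to 219 CPM with DMSO and 295 to 324 CPM with PR-957, with a log2 fold change of 0.56 ± 0.0582 (SE, edgeR adjusted p = 2.48e-07). TRAP1, the mitochondrial HSP90, overlapped between groups, with a log2 fold change of 0.0269 ± 0.0706 (SE, edgeR adjusted p = 0.778) and an interval of 2 SE from -0.11 to 0.17. CHORDC1, an HSP90-binding protein, was counted at only 48 fragments in DMSO and 60 in PR-957, and its interval of -0.41 to 0.94 leaves its direction unresolved. Among 15 further cochaperones of HSP90 and HSP70 outside the symbol rule, 14 were tested. Of these, 6 were higher (42.9%) and 1 lower (7.14%), beside 23.1% and 23.5% over all genes tested. The calls higher fell to 4 without DMSO replicate 4. AHSA1, which stimulates the ATPase of HSP90, had the largest change of the list, at 103 ± 11.2 CPM in DMSO against 159.5 ± 4.71 CPM in PR-957 (log2 fold change 0.63 ± 0.0675 SE, edgeR adjusted p = 3.86e-07). ST13, an HSP70-interacting protein, was the 1 called lower (log2 fold change -0.19, edgeR adjusted p = 0.00841). PTGES3 and CDC37, the cochaperone p23 and the kinase adaptor, were not called, at log2 fold changes of -0.00469 and 0.0644.

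**Figure D3:**
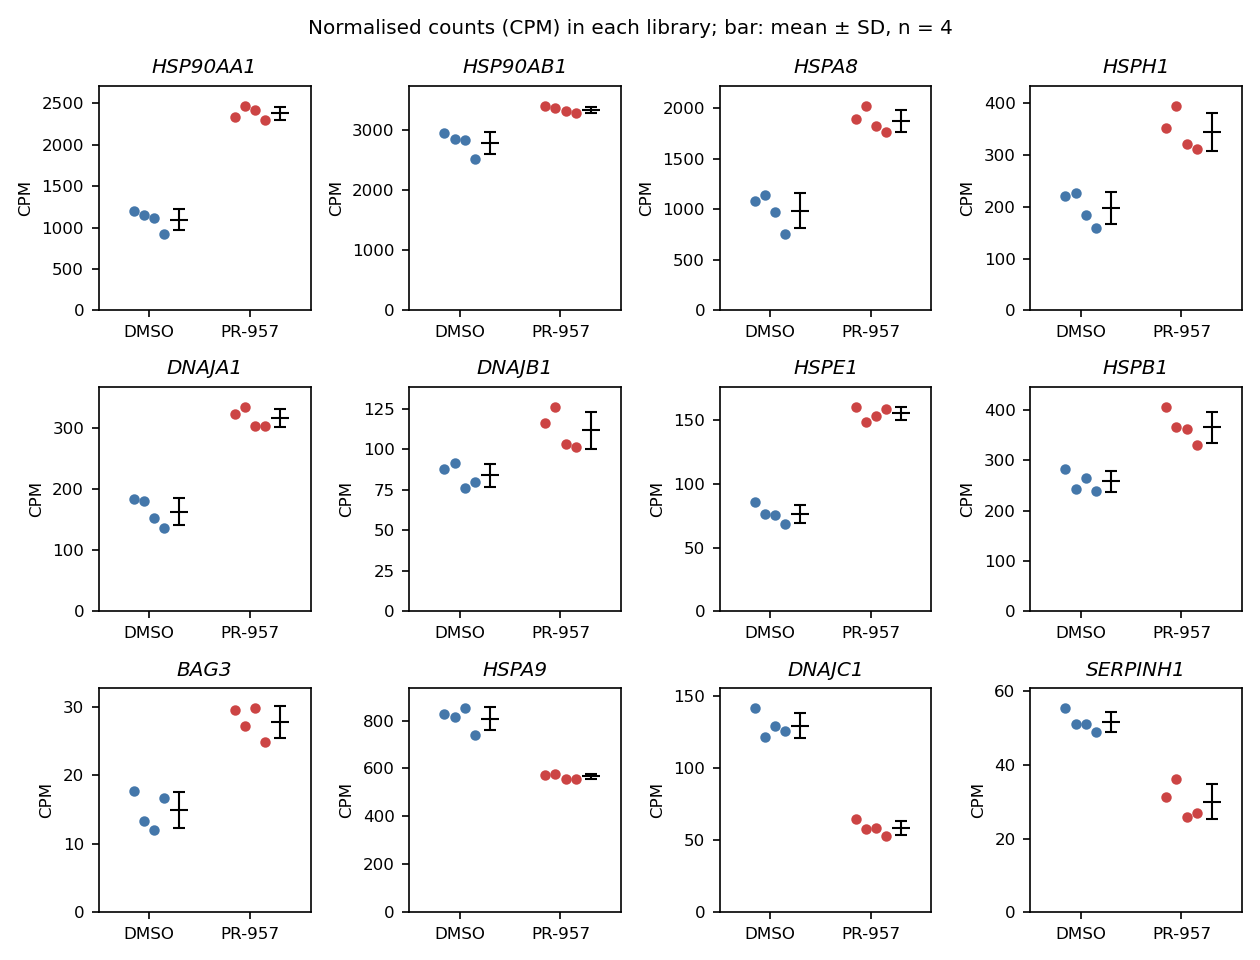
TMM-normalised CPM (y axis from 0, a scale of its own in each panel) of 12 members in each DMSO (blue) and PR-957 (red) library. Each point is a library and the bars give the group mean ± SD (n = 4). The groups stand apart for HSP90AA1, from 916 to 1197 CPM for DMSO and from 2293 to 2462 CPM in PR-957, and HSPA9, DNAJC1 and SERPINH1 are lower in all PR-957 libraries.

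Among 15 HSP70 and HSP110 genes, 11 were tested, with 7 higher (63.6%), 2 lower (18.2%) and 2 not called. Their median log2 fold change was 0.61, which was 0.41 without DMSO replicate 4. All genes tested gave 23.1% higher and 23.5% lower. HSPA8 (chr11:123057489-123062366, minus strand) is the constitutive cytosolic HSP70. It measured 1082, 1137, 974 and 752 CPM under DMSO and 1896, 2017, 1818 and 1759.7 CPM under PR-957. The groups were far apart even though DMSO replicate 4 was well below the other DMSO libraries, and the change was 1.90-fold (log2 fold change 0.93 ± 0.11 SE, edgeR adjusted p = 5.94e-05). Without DMSO replicate 4 the log2 fold change was 0.81. HSPA6, a strictly inducible form, was scarce. It measured 0.564, 0.501, 0.724 and 1.05 CPM in the DMSO libraries and 2.17, 1.62, 2.47 and 2.08 CPM in the PR-957 libraries, or 54 against 161 counts in all. Its increase was the largest among the tested genes of the family, 1.52 ± 0.28 log2 units (SE, edgeR adjusted p = 2.26e-04), with no overlap. It was highest in DMSO replicate 4 among the DMSO libraries, and passed the filter only through the PR-957 libraries. HSPA1B rose by 1.21 ± 0.17 log2 units (SE, edgeR adjusted p = 1.18e-05) and its groups did not overlap either. HSPA1A overlapped between groups and missed the threshold at 0.71 ± 0.33 log2 units (SE, edgeR adjusted p = 0.0851), or 0.41 without DMSO replicate 4. HSPA1A and HSPA1B are near-identical copies that also lie on alternate contigs, as HSPA6 and HSPA7 are close copies of each other, so the division of fragments between the copies is uncertain.

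All 3 genes of the HSP110 proteins, which exchange the nucleotide of HSP70, were higher. HSPH1 ran from 159 to 225 CPM with DMSO and 310.5 to 393 CPM with PR-957, with a log2 fold change of 0.80 ± 0.12 (SE, edgeR adjusted p = 5.41e-04). HSPA4L rose by 0.61 ± 0.0845 log2 units (SE, edgeR adjusted p = 7.90e-06) and HSPA4 by 0.22 ± 0.0624 log2 units (SE, edgeR adjusted p = 0.00625). HSPA14, an atypical HSP70 that sits on the ribosome, rose by 0.23 ± 0.0559 log2 units (SE, edgeR adjusted p = 0.00201). Its ribosomal partner, the J-domain protein DNAJC2, was higher by 0.24 ± 0.0553 log2 units (SE, edgeR adjusted p = 0.00148).

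A pair of HSP70 genes of the organelles was lower. HSPA9 (chr5:138553756-138575401, minus strand), the mitochondrial HSP70 known as mortalin, was 827, 814, 850.5 and 739 CPM in DMSO, against 574, 577, 558 and 558 CPM in PR-957. All PR-957 libraries were below all DMSO libraries, and the log2 fold change was -0.51 ± 0.0558 (SE, edgeR adjusted p = 4.77e-07). The ratio of HSPA8 to HSPA9 counts was 1.02 to 1.40 in DMSO and 3.15 to 3.50 in PR-957. Its separation follows from the rise of HSPA8 and the fall of HSPA9, each without overlap. HSPA13, an HSP70-like ATPase of the microsomes, was 66.6, 72.2, 68.2 and 58.6 CPM under DMSO and 35.0, 41.4, 37.3 and 34.9 CPM under PR-957, a log2 fold change of -0.84 ± 0.0733 (SE, edgeR adjusted p = 2.51e-08) without overlap. HSPA7, annotated as a pseudogene, had a log2 fold change of -1.70 ± 0.69 (SE, edgeR adjusted p = 0.0889), but DMSO replicate 4 stood at 44.0 CPM against 7.63 to 10.0 CPM in the remaining DMSO libraries. Without it the log2 fold change was -0.71 (edgeR adjusted p = 0.00123).

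Both subunits of the mitochondrial chaperonin were higher, but by unequal amounts. HSPE1 (chr2:197500379-197503449, plus strand), the lid, was 85.3, 76.2, 75.6 and 68.1 CPM in the DMSO libraries and 159.6, 148, 153 and 159 CPM in the PR-957 libraries. The groups did not overlap and the change was 2.03-fold (log2 fold change 1.02 ± 0.0633 SE, edgeR adjusted p = 2.14e-10). HSPD1 (chr2:197486584-197500274, minus strand), which forms the folding chamber and lies head to head with HSPE1, was 968, 976, 959.7 and 851 CPM in DMSO, against 1108, 1145, 1113 and 1096 CPM in PR-957. It rose by 0.25 ± 0.0571 log2 units (SE, edgeR adjusted p = 0.00137), with DMSO replicate 4 set apart below the other DMSO libraries. The ratio of HSPE1 to HSPD1 counts was 0.0781 to 0.0881 in DMSO and 0.130 to 0.145 in PR-957. Of the exonic length of HSPE1, 40.6% is shared on the same strand with the readthrough gene HSPE1-MOB4, so its absolute count is a lower bound. Other genes of mitochondrial protein quality control, taken from a list of 12, gave 4 higher, 3 lower and 5 not called, not far from the shares over all genes. LONP1, the matrix protease, had the largest change, from 561 ± 30.9 CPM in DMSO to 247 ± 6.06 CPM in PR-957 (log2 fold change -1.18 ± 0.0550 SE, edgeR adjusted p = 2.14e-12). GRPEL2, a nucleotide exchange factor of HSPA9, was also lower at a log2 fold change of -0.56 (edgeR adjusted p = 3.02e-06), whereas GRPEL1, its paralog, was higher at 0.17 (edgeR adjusted p = 0.0183).

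**Figure D4:**
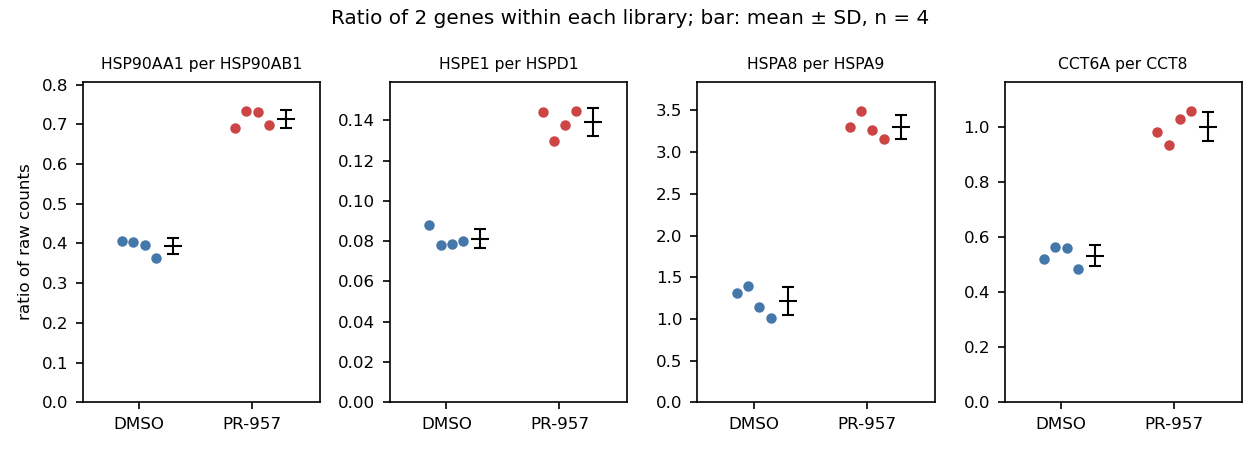
Ratio of raw counts of pairs of members within each library (y axis from 0, unitless) for DMSO and PR-957, each point a library and the bars the group mean ± SD (n = 4). In all 4 pairs, HSP90AA1 to HSP90AB1, HSPE1 to HSPD1, HSPA8 to HSPA9 and CCT6A to CCT8, the PR-957 libraries lie above the DMSO libraries without overlap. For HSPA8 to HSPA9 and CCT6A to CCT8 this separation was fixed beforehand, since the first gene rose and the second fell, each without overlap. CCT6A and CCT8 are the TRiC genes with the largest rise and fall.

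The 8 genes of TRiC, the ring-shaped cytosolic chaperonin, moved unequally. CCT6A, TCP1, CCT3 and CCT7 were higher, CCT8 was lower, and CCT5, CCT2 and CCT4 were not called. These calls were 50% higher and 12.5% lower, beside 23.1% and 23.5% over all genes tested. CCT6A was 466, 469, 479 and 397 CPM under DMSO and 654, 616, 652 and 635 CPM under PR-957. Its groups did not overlap, although DMSO replicate 4 lay below its own group, and the log2 fold change was 0.50 ± 0.0610 (SE, edgeR adjusted p = 1.99e-06). TCP1 rose by 0.35 ± 0.0596 log2 units (SE, edgeR adjusted p = 8.67e-05). CCT3 and CCT7 overlapped between groups and passed the threshold narrowly, at 0.18 ± 0.0673 log2 units (SE, edgeR adjusted p = 0.032) and 0.15 ± 0.0599 log2 units (SE, edgeR adjusted p = 0.0482). The call of CCT3 was lost when DMSO replicate 3 or 4 was left out, or any of PR-957 replicates 1 to 3, and that of CCT7 in the same fits and also without DMSO replicate 2. Without DMSO replicate 4 their log2 fold changes were 0.11 (edgeR adjusted p = 0.0875) and 0.0995 (edgeR adjusted p = 0.122).

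CCT8, the TRiC gene with the highest level per length in DMSO, measured 893, 829, 852 and 820.2 CPM in DMSO and fell to 666, 658, 634 and 599 CPM in PR-957. The groups did not overlap, and the log2 fold change was -0.41 ± 0.0554 (SE, edgeR adjusted p = 6.84e-06). The remaining subunits gave log2 fold changes of 0.0723 for CCT5, -0.00699 for CCT2 and -0.11 for CCT4. Scaling by library totals alone turned the sign of CCT2 to 0.0718, and CCT4 was called lower without DMSO replicate 4 (log2 fold change -0.15, edgeR adjusted p = 0.0209). The subunits stand in equal number in the assembled ring. Per length, the highest transcript was 2.15 times the lowest in DMSO and 1.59 times in PR-957, on group means. Without CCT8 this ratio was 1.44 in DMSO and 1.59 in PR-957, so the narrower range came from CCT8. The ratio of CCT6A to CCT8 counts was 0.484 to 0.566 in DMSO and 0.937 to 1.06 in PR-957. Its separation follows from the rise of CCT6A and the fall of CCT8, each without overlap. Of 10 tested genes for prefoldin and other TRiC helpers, 3 were higher, 2 lower and 5 not called. These shares, 30% and 20%, were near the 23.1% higher and 23.5% lower over all genes tested. The calls higher fell to 1 when DMSO replicate 2 or PR-957 replicate 1 was left out, and the calls lower to 1 when DMSO replicate 1 or 3, or any of PR-957 replicates 2 to 4, was left out. URI1, a prefoldin-like protein, had the largest change at -0.39 ± 0.0521 log2 units (SE, edgeR adjusted p = 5.60e-06).

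**Figure D5:**
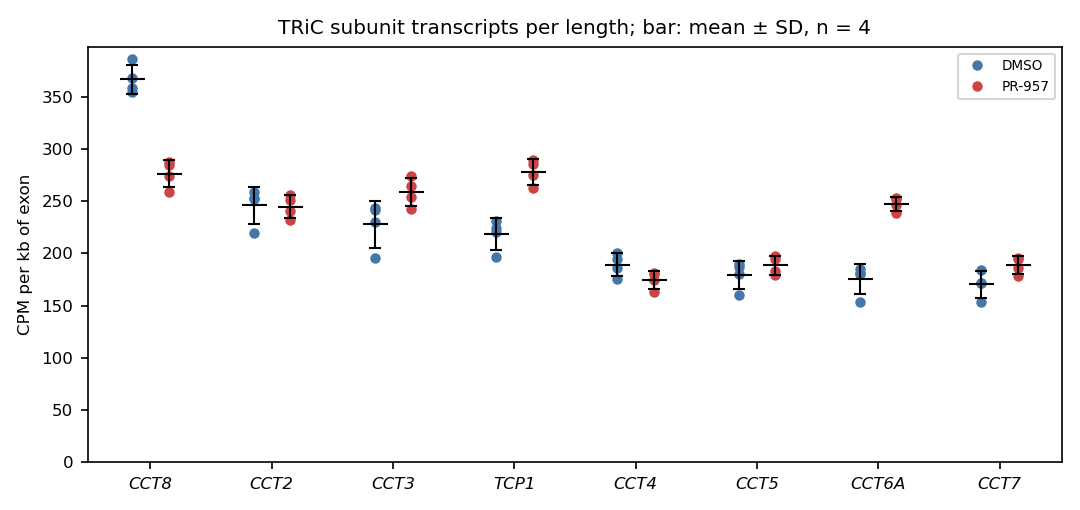
Level per kilobase of gene length (y axis, TMM-normalised CPM per kb) of the 8 TRiC genes in each DMSO and PR-957 library, each point a library and the bars mean ± SD (n = 4). CCT8 stands highest in DMSO and falls, CCT6A and TCP1 rise, and the ratio of the highest to the lowest subunit goes from 2.15 to 1.59, or from 1.44 to 1.59 without CCT8.

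Only a pair of the 8 small heat shock protein genes was expressed enough to be tested. HSPB1, a holdase that binds unfolding proteins, was 284, 244, 265 and 240.0 CPM in the DMSO libraries and 405, 366, 362 and 329.9 CPM in the PR-957 libraries. It rose without overlap by 0.50 ± 0.0667 log2 units (SE, edgeR adjusted p = 5.46e-06). HSPB11, named in this family but known as a subunit of the intraflagellar transport complex, rose by 0.70 ± 0.10 log2 units (SE, edgeR adjusted p = 1.23e-05). HSPB6 went the other way below the filter, with 88 counts in DMSO and 23 in PR-957. The ratio of DMSO to PR-957 was 4.00 after scaling, with a 95% interval of 2.51 to 6.64 that covers counting error only. It was called lower when no filter was applied and when DMSO replicate 3 or any single PR-957 library was left out, which let it pass the filter.

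Of the BAG genes, BAG3 and BAG2 were higher (33.3%, beside 23.1% over all genes tested) and the remaining 4 were not called. BAG3, which pairs HSP70 with the small heat shock proteins in selective autophagy, was 17.7, 13.4, 12.1 and 16.7 CPM in DMSO, against 29.5, 27.2, 29.8 and 24.8 CPM in PR-957. The groups did not overlap and the log2 fold change was 0.89 ± 0.11 (SE, edgeR adjusted p = 2.41e-06). BAG2, an inhibitor of the ubiquitin ligase STUB1, rose by 0.45 ± 0.0927 log2 units (SE, edgeR adjusted p = 0.00131). BAG1, BAG4, BAG5 and BAG6 gave log2 fold changes from -0.0808 to 0.14.

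Among the HSP40 genes, 2 of 3 tested in DNAJA and 2 of 7 in DNAJB were higher. In DNAJB 2 were also lower. The DNAJB shares, 28.6% in each direction, were near the 23.1% higher and 23.5% lower over all genes tested. DNAJA1, the main cytosolic type A partner of HSP70, was 183, 179.7, 153 and 136 CPM under DMSO and 322, 333, 303 and 303 CPM under PR-957. It rose 1.94-fold without overlap (log2 fold change 0.95 ± 0.0806 SE, edgeR adjusted p = 1.77e-07). DNAJA4 rose by 0.74 ± 0.17 log2 units (SE, edgeR adjusted p = 0.00134), and DNAJA2 gave a log2 fold change of -0.0263 without a call. In the DNAJB subfamily, the genes called higher were DNAJB1 and DNAJB5. DNAJB1, the type B partner of HSP70 in the heat shock response, ran from 76.4 to 91.7 CPM with DMSO and 101 to 126 CPM with PR-957 and rose by 0.41 ± 0.0742 log2 units (SE, edgeR adjusted p = 2.07e-04). DNAJB5 was scarce, with 66 counts in DMSO and 187 in PR-957, and rose by 1.41 ± 0.27 log2 units (SE, edgeR adjusted p = 2.97e-04). It passed the filter only through the PR-957 libraries. DNAJB12 and DNAJB14, J-domain proteins of the ER membrane, were called lower at -0.19 ± 0.0653 log2 units (SE, edgeR adjusted p = 0.0248) and -0.19 ± 0.0665 log2 units (SE, edgeR adjusted p = 0.0247). Either call was lost when DMSO replicate 1, DMSO replicate 2 or PR-957 replicate 3 was left out, that of DNAJB12 also without PR-957 replicate 4 and that of DNAJB14 also without PR-957 replicate 1. DNAJB2, DNAJB4 and DNAJB6 were not called.

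DNAJC is the largest subfamily and the most varied in function. Of 27 genes, 24 were tested, with 7 higher (29.2%), 6 lower (25.0%) and 11 not called, shares near those of all genes tested. The median log2 fold change was 0.0273, and it was -0.0266 without DMSO replicate 4. DNAJC1 (chr10:21756548-22003763, minus strand), which is anchored in the ER membrane, had the largest decrease of any called member. It was 141, 122, 129 and 126 CPM in the DMSO libraries and 64.5, 58.0, 58.2 and 52.9 CPM in the PR-957 libraries. The groups were well apart, and the level in DMSO was 2.22 times that in PR-957 (log2 fold change -1.15 ± 0.0655 SE, edgeR adjusted p = 6.15e-11). DNAJC18, also of the ER membrane, fell by 0.54 ± 0.12 log2 units (SE, edgeR adjusted p = 0.0015). DNAJC21, which acts in maturation of the large ribosomal subunit, gave -0.34 ± 0.0501 log2 units (SE, edgeR adjusted p = 1.64e-05). DNAJC10, an ER disulfide reductase, DNAJC7, which binds both HSP70 and HSP90, and DNAJC19, of the mitochondrial import motor, were lower at log2 fold changes of -0.21, -0.20 and -0.27.

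On the rising side, DNAJC6, the clathrin-uncoating protein auxilin, had the largest log2 fold change of the tested members, 1.57 ± 0.41 (SE, edgeR adjusted p = 0.00363), on 25 counts in DMSO and 78 in PR-957. The ratio of its counts after scaling was 2.98, with a 95% counting interval of 1.88 to 4.88. DMSO replicate 4 held 14 of the 25 DMSO counts, and without it the log2 fold change was 2.18 (edgeR adjusted p = 4.93e-04). Over all libraries left out in turn it ran from 1.30 to 2.18, and the gene passed the filter only through the PR-957 libraries. DNAJC12, a cochaperone of aromatic amino acid hydroxylases, rose by 0.85 ± 0.23 log2 units (SE, edgeR adjusted p = 0.00569) although the groups overlapped. DNAJC9, a J-domain protein that handles histones, ran from 115 to 141 CPM with DMSO and 169 to 189 CPM with PR-957 and rose by 0.45 ± 0.0640 log2 units (SE, edgeR adjusted p = 1.27e-05). DNAJC5, of secretory vesicles, DNAJC8, of the spliceosome, and DNAJC11, of the mitochondrial membranes, were higher by log2 fold changes of 0.27, 0.24 and 0.24.

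Neither of the heat shock factor genes was called higher. HSF2 was called lower at -0.21 ± 0.0797 log2 units (SE, edgeR adjusted p = 0.0345), with overlapping groups, and the call was lost when any of DMSO replicates 1 to 3, or PR-957 replicate 3 or 4, was left out. HSF1, the main activator of the response, gave -0.26 ± 0.19 log2 units (SE, edgeR adjusted p = 0.272) on counts that its second placement in the assembly may lower. SERPINH1 (chr11:75562253-75572811, plus strand), the collagen chaperone of the ER and the 1 called-lower member with an element in its window, was 55.3, 51.2, 51.0 and 48.9 CPM in DMSO, against 31.4, 36.1, 25.8 and 27.0 CPM in PR-957. It fell without overlap, by 0.78 ± 0.0887 log2 units (SE, edgeR adjusted p = 1.71e-06).

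Although the rule was meant to take cytosolic and mitochondrial chaperones, it also took in proteins of the ER. When members were grouped by the compartment in which their proteins are known to reside, a grouping made after the values were seen, 10 belonged to the ER. Of these, 0 were higher, 7 lower (DNAJC1, HSPA13, SERPINH1, DNAJC18, DNAJC10, DNAJB14 and DNAJB12) and 3 not called, beside 23.5% lower over all genes tested. Of the 7, DNAJC18, DNAJC10, DNAJB14 and DNAJB12 lost their call under at least 1 alternative processing. Of 8 tested mitochondrial members, 3 were higher (HSPE1, HSPD1 and DNAJC11), 2 lower (HSPA9 and DNAJC19) and 3 not called. Of the 54 tested members in neither group, 29 were higher, 4 lower and 21 not called. For comparison, all genes tested gave 23.1% higher and 23.5% lower. Among 10 tested ER chaperones that the rule left out, 6 were higher (60%), 1 lower (10%) and 3 not called. HYOU1, among those not called, also lies on an alternate or fix contig. It held 110 counts in DMSO and 121 in PR-957, which may understate its level. SDF2L1, a partner of ER J-domain proteins, had the largest change, from 20.9 ± 2.97 CPM in DMSO to 46.7 ± 3.42 CPM in PR-957 (log2 fold change 1.17 ± 0.0908 SE, edgeR adjusted p = 7.83e-09). HSPA5, the HSP70 of the ER, was higher at 0.44 ± 0.0575 log2 units (SE, edgeR adjusted p = 4.50e-06), while DNAJB9, a J-domain partner of HSPA5, was lower at -0.40 ± 0.0938 log2 units (SE, edgeR adjusted p = 0.00153).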

How the data were processed

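The 8 RNA-sequencing libraries of MOLM-13 cells were grouped by their titles. Per the labels and file headers, the authors trimmed reads with Trimmomatic 0.39, aligned them to hg38 with STAR 2.7.10a and counted fragments per gene with featureCounts 2.0.1 on the reverse strand. The deposited values were raw counts. The counting command named 16 libraries, of which the table held 8. Its command had no option for multiply mapped fragments, which can lower genes that have a second copy or lie on alternate contigs. A further deposited table of the authors' own comparison (mean, log2 fold change, standard error and p-values) was not used. In the counts, 6 rows without values were left out. Total counts were 16675036 to 23111223, and the closest pair of replicates (DMSO 1 and 3) differed by a chi-square of 3.32 per gene, so no library was taken for a duplicate.

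The effect of PR-957 was tested with the edgeR 4.0.16 quasi-likelihood method in R 4.3.3 (TMM, filterByExpr, robust), two-sided, without covariates, on all 13179 genes that passed the filter, with Benjamini-Hochberg adjustment and a threshold of 0.05. The study's tool, DESeq2 1.42.0, and limma-voom (3.58.1) were alternatives, beside other scalings and filters, a replicate block, a batch term and leaving out each library. SE was obtained from the log2 fold change and its F statistic. CPM are TMM-normalised and given as mean ± SD, n = 4. TPM used the gene lengths of the counting table. Intervals for ratios of low counts are exact and cover counting error only. The fit was tested on simulated data. The members, gene lists and tests were chosen with earlier results of these data known. Named genes were 23 fixed members, the called member with the largest rise and fall in each family, and the largest change in each further list, and any other gene was named to account for the members after its values were seen. Promoter windows came from RefSeq (GRCh38.p14), which had none for 14 members.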

Additional observations from a re-analysis of the deposited data

Results flagged for a closer look

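Of 144 groups of 4 libraries (72 members in each treatment), 10 held a library whose distance from the nearest of the others took up more of the group's range than Dixon's 95% limit allows. Chance flags about 1 in 20 groups. DMSO replicate 4 stood apart in 5 of them. HSPA7 was high in it, at 44.0 CPM against 7.63 to 10.0 CPM in the other 3 DMSO libraries. HSPD1 was low at 851 CPM against 959.7 to 976 CPM, CCT6A at 397 CPM against 466 to 479 CPM, CCT2 at 447 CPM against 514 to 527 CPM and DNAJB6 at 90.9 CPM against 96.2 to 96.6 CPM. The remaining flags fell on other libraries. BAG6 was high in DMSO replicate 2, at 16.0 CPM against 12.1 to 12.7 CPM, and DNAJC19 was high in DMSO replicate 3, at 50.8 CPM against 44.0 to 44.4 CPM. In PR-957 replicate 2, FKBP4 was low at 192 CPM against 204 to 205 CPM and DNAJB2 high at 11.3 CPM against 9.28 to 9.47 CPM. DNAJC25 was high in PR-957 replicate 4, at 11.8 CPM against 10.9 to 11.0 CPM. Why these libraries stood apart was not tested.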

How the results depend on the processing

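Of 45 members called, 34 kept their call under all 19 alternatives, 11 lost it under at least 1 and 0 changed direction past the threshold. The 11 were CCT3, CCT7, DNAJB12, DNAJB14, DNAJC6, DNAJC7, DNAJC10, DNAJC11, DNAJC18, DNAJC19 and HSF2. Of 27 members not called, 8 were called and 15 changed sign under at least 1. The cause of these changes was not tested. Scaling by library totals alone gave a member median of 0.22, and medians of 0.17 for BAG, 0.11 for DNAJC, 0.68 for small HSPs, 0.21 for other cochaperones and 0.0336 for mitochondrial proteostasis. It called 0 DNAJB genes and 0 heat shock factors lower, 7 prefoldin and TRiC helpers higher and 1 lower, and 10 other cochaperones higher and 0 lower. Over all 13179 genes it called 4066 higher and 2353 lower, against 3045 and 3098 in the main fit. DESeq2 gave a DNAJB median of -0.0648 and called 0 heat shock factors and 1 small HSP lower. No filter on low counts tested 85 members and gave medians of -0.0692 for DNAJB and 0.69 for small HSPs, with 1 small HSP lower. A minimum of 1 CPM in 4 libraries, which removed CHORDC1, gave an HSP90 median of 0.56. The upper quartile and library totals turned CCT2 to 0.00484 and 0.0718. Members on the primary assembly alone, an alternative chosen after seeing the data, gave 30 higher and 13 lower of 66, with a median of 0.14.

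Replicates 1 and 2 alone, with 2 libraries a group, gave medians of 0.17 for BAG and 0.26 for HSP70 and HSP110, called 2 TRiC genes and 2 mitochondrial proteostasis genes higher, and 1 DNAJB gene, 0 heat shock factors, 1 small HSP and 1 prefoldin helper lower. Replicates 3 and 4 alone gave medians of 0.14 for DNAJC, 0.45 for small HSPs and 0.0399 for mitochondrial proteostasis, called 2 TRiC genes, 1 prefoldin helper and 2 mitochondrial proteostasis genes higher, and 1 DNAJB gene, 0 heat shock factors, 1 prefoldin helper and 0 ER chaperones lower. With each library left out in turn, calls lower ran from 0 to 2 for DNAJB, 1 to 2 for TRiC, 0 to 1 for heat shock factors, 0 to 1 for small HSPs and 1 to 2 for prefoldin helpers, and calls higher from 2 to 4 for TRiC and 1 to 4 for prefoldin helpers. For the other cochaperones of HSP90 and HSP70, calls higher ran from 4 to 7. Medians ran from -0.0266 to 0.0501 for DNAJC, 0.41 to 0.68 for HSP70 and HSP110 and 0.45 to 0.64 for small HSPs, and log2 fold changes from -0.0605 to 0.0167 for CCT2 and -0.0456 to 0.0750 for TRAP1.

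The replicate block called 33 members higher and 14 lower, with 2 TRiC genes lower (CCT8 and also CCT4, at -0.11 and an edgeR adjusted p of 0.043) and 5 prefoldin helpers higher, and a 2-level batch term called 33 higher and 14 lower. Deviations of same-numbered libraries correlated at 0.151, 0.213, 0.0985 and 0.198 across genes, and PR-957 replicate 3 correlated best with DMSO replicate 4 (0.105). Each DMSO library correlated best with the same-numbered PR-957 library. With a pair under 0.1, the numbers were not taken as a pairing in the main fit. Over all genes the replicate block called 3513 higher and 3400 lower, against 3045 and 3098 in the main fit. Depth limits the 5 members that passed the filter through 1 group, and copies or extra contigs limit HSPA1A, HSPA1B, HSPA6, HSPA7, CHORDC1 and HSF1.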

Other observations

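Among members below the filter on low counts, HSPA2, a testis-enriched HSP70, held 4 counts in DMSO and 25 in PR-957 over 4 libraries each. The ratio of PR-957 to DMSO after scaling was 5.97, with a 95% counting interval of 2.06 to 23.6. HSPA1L held 15 and 10 counts, DNAJC22 17 and 31, and DNAJB13 10 and 9 in DMSO and PR-957. DNAJB3, DNAJB7, DNAJB8, DNAJC28 and HSPB3 were at 0 in all 8 libraries, and of these DNAJC28 also lies on another contig. DNAJA3, DNAJC5G, HSPA12A, HSPA12B, HSPB2, HSPB7, HSPB8 and HSPB9 held at most 4 counts in a group.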
